A study of Mus musculus with 8 samples.

Results

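The 10 genes that encode the mouse MHC class II molecules and the proteins that load them with peptide were followed across 8 RNA libraries made from maternal cells that had trafficked to the pup, or from the pup's own (recipient) cells, with and without in-utero transplantation (IUT). They were chosen by name and were all found among the 52784 genes of the deposited count table. They are the chains of the I-A molecule (H2-Aa and H2-Ab1), the chains of the I-E molecule (H2-Ea and H2-Eb1), the invariant chain Cd74, the transactivator Ciita, the peptide exchange factor H2-DM (H2-DMa and H2-DMb1) and its modulator H2-DO (H2-Oa and H2-Ob).

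MHC class II molecules present peptides from endosomes to CD4 T cells and are made by B cells, dendritic cells (DC) and macrophages. The invariant chain holds the peptide groove closed during transport, H2-DM exchanges its remnant for peptide, and H2-DO, found mainly in B cells, holds H2-DM back. CIITA binds the factors that sit on the X and Y boxes of class II promoters and is a main switch of class II genes. Mice of the b haplotype, C57BL/6 among them, carry a defective H2-Ea promoter and make no I-E, while BALB/c mice (d haplotype) make it.

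All pups were F1 hybrids, sired by BALB/c males on C57BL/6 dams that carried CD11c-DTR, a diphtheria toxin receptor under the CD11c promoter, so that diphtheria toxin (DT) acts on CD11c+ cells. DC-depleted dams received DT (5 ng/g) on embryonic day 13 and DC control dams received saline, and on embryonic day 14 each fetus received 5000000 bone marrow mononuclear cells into the liver. Donor cells were C57BL/6 (CD45.1, H2K-b) in mIUT and BALB/c (H2K-d) in pIUT, and uninjected pups came from dams with or without DT, in a proportion that the labels do not give. Cells were harvested from whole bodies at the age of 1 week and sorted by H2K-b (maternal) or H2K-d (recipient), and each origin had 1 library of pooled pups for uninjected, DC control mIUT, DC control pIUT and DC-depleted pIUT. F1 cells carry both haplotypes, C57BL/6 donor cells share H2K-b with maternal cells, and BALB/c donor cells share H2K-d with recipient cells. Each group has 1 library and no test was made, so a difference here is one of 2 pooled libraries and has no replicate check.

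The libraries held between 38543457 and 47965130 counts. Levels are CPM (counts scaled to the same library size, with TMM factors), and intervals are exact 95% Poisson or binomial intervals that cover counting error only, since PCR copies were not told apart. A gene at 3 counts or fewer is given as not detectable at this depth, which lay between 0.0547 and 0.105 CPM. A fold against such a gene is a lower bound by read counts only, and loss of transcripts before sequencing was not tested. Some libraries stood apart in ways that bear on these genes. Of the genes with at least 10 CPM in each of the other 7 libraries, 9.51% were under 1 CPM in uninjected recipient cells and 4.86% in maternal cells of DC control mIUT, while the share was between 0% and 1.26% in the other 6 libraries.

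H2-Ea, whose product the b haplotype lacks, went against the labels of 3 libraries. Uninjected recipient cells, which should hold the d haplotype, had 27 counts of H2-Ea beside 18072 counts of H2-Eb1. The libraries labelled maternal DC control mIUT and maternal DC-depleted pIUT had 311 and 178 counts of H2-Ea beside 498 and 351 counts of H2-Eb1. The ratio of H2-Ea to H2-Eb1 was 0.624 (interval 0.54 to 0.721) and 0.507 (0.421 to 0.609) in these maternal libraries, as high as or higher than in the recipient libraries of DC control mIUT (0.303), DC control pIUT (0.48) and DC-depleted pIUT (0.401). It was 0.00149 (0.000984 to 0.00217) in the library labelled recipient uninjected, at most 2.5e-05 in uninjected maternal cells and at most 0.00428 in maternal cells of DC control pIUT. H2-Ea over H2-Aa was 0.105 (0.0931 to 0.118) in the library labelled maternal DC control mIUT, under the recipient libraries after IUT, and 0.39 in that labelled maternal DC-depleted pIUT. It lay between 0.275 and 0.368 in the recipient libraries after IUT and was 0.000694 in uninjected recipient cells. What made these libraries differ from their labels was not tested, and they are named as labelled throughout.

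**Figure D1:**
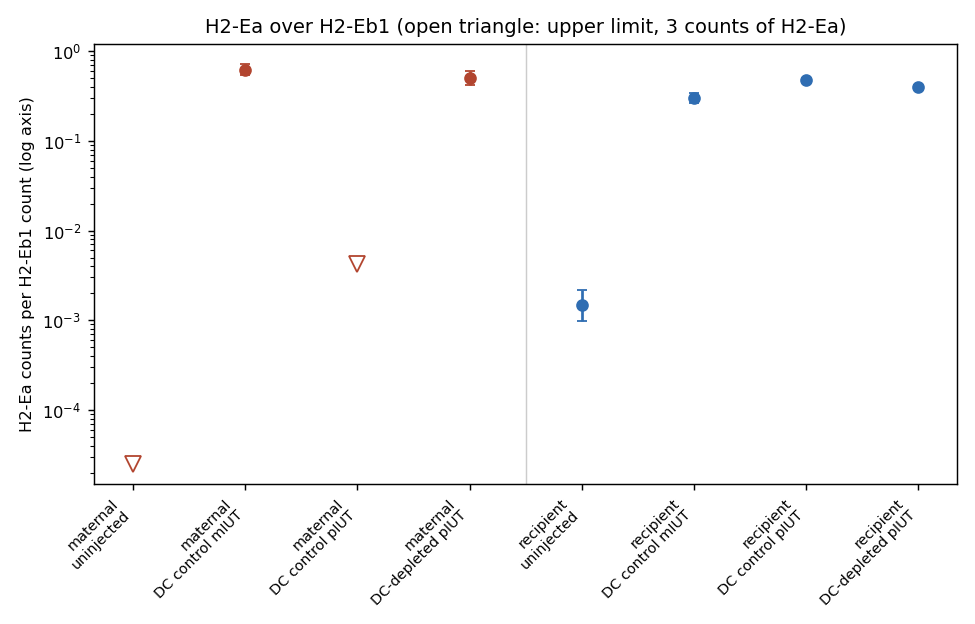
H2-Ea counts per H2-Eb1 count in each library, on a log axis, with 95% intervals of counting error, maternal libraries on the left and recipient libraries on the right. Open triangles are upper limits. The maternal libraries of DC control mIUT (0.624) and DC-depleted pIUT (0.507) stood at the level of the recipient libraries after IUT, while uninjected recipient cells (0.00149) lay far under it.

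Of the 10 genes, 8 lie on chromosome 17 in the MHC, while Ciita and Cd74 lie on other chromosomes. In GRCm39 the MHC members run from H2-Oa (chr17:34311314-34314328), H2-DMa (chr17:34338515-34358958), H2-DMb1 (chr17:34372046-34379204) and H2-Ob (chr17:34457836-34473388), all on the plus strand, through H2-Ab1 (chr17:34476663-34488393, plus) and H2-Aa (chr17:34493404-34506798, minus) to H2-Eb1 (chr17:34504236-34535648, plus) and H2-Ea (chr17:34560926-34563618, minus). Ciita spans chr16:10297923-10347694 on the plus strand. The H2-Aa and H2-Eb1 models overlap on opposite strands at their ends, and H2-DMb1 has a close paralog, H2-DMb2 (chr17:34362197-34370529), so reads may have been divided between these genes.

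The promoters of the members were searched for the X and Y boxes. RefSeq windows of 300 bases (250 before to 50 after a transcription start, GRCm38.p6, a different build from the gene positions above) were matched for 6 of 10 members. H2-Ab1, H2-Ea, Cd74 and Ciita had no entry. The windows were searched on both strands for an X-box core (AG, any 2 bases, AC, any base, then GATG) and a Y-box core (CTGATTGG), and for ATTGG, which the Y-box core contains. Capitals mark the matches in the stretches printed here, which were chosen to show both boxes or the place where the Y box lies, 5′ to 3′ along the gene's own strand. They are chr17:34287853-34287921 (minus strand) for H2-Aa, chr17:34305758-34305826 for H2-Eb1, chr17:34153080-34153148 for H2-DMb1, chr17:34092286-34092354 for H2-Oa, chr17:34238798-34238866 for H2-Ob and, to set beside H2-DMb1, chr17:34145109-34145177 for its paralog H2-DMb2 (plus strand for these 5 genes).
H2-Aa: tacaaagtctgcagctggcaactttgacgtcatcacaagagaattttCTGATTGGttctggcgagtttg
H2-Eb1: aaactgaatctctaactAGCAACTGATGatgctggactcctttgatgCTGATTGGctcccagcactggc
H2-DMb1: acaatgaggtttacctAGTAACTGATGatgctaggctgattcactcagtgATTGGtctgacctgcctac
H2-Oa: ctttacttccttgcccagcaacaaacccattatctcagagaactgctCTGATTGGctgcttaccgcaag
H2-Ob: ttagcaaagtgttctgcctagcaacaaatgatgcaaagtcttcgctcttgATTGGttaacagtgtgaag
H2-DMb2: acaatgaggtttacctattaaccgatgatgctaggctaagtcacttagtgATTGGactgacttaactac

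In H2-Eb1 the X-box core began at -92 and the Y-box core at -62 from the start site, with 19 bases between them. H2-DMb1 held the X-box core at -95 and ATTGG at -61, with 23 bases between them. H2-Oa held both cores, the X-box core at -141, upstream of the stretch printed, and the Y-box core at -46. H2-Aa held the Y-box core at -51 without the X-box letters searched, and H2-Ob only ATTGG at -57. Of the 2 windows of H2-DMa, 1 held none of these letters and the other only ATTGG at -198. Among all 32851 windows, 0.968% held the X-box core, 4.1% the Y-box core, 37.4% ATTGG and 0.0304% both cores. The 10 windows with both cores included those of H2-Eb1, H2-Oa and the class II gene H2-Eb2. The others were windows of H2-M10.1, H2-M10.5, H2-M10.6, Prpf38b, Ppp2r1b and Mterf2, which are not class II genes. A match describes letters and not a bound site.

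H2-Aa and H2-Ab1, the chains of I-A, were far more abundant in uninjected maternal cells than in any other library. H2-Aa stood at 4229 CPM in uninjected maternal cells, 76.5 after DC control mIUT, 13 after DC control pIUT and 13.8 after DC-depleted pIUT, and at 805, 43.0, 164 and 220 CPM in recipient cells in the same order. H2-Ab1 stood at 8625, 69.8, 17.3 and 69.8 CPM in maternal cells and at 973, 82.8, 368 and 491 CPM in recipient cells. In every library with IUT, maternal or recipient, both genes lay under the uninjected library of the same origin. In bulk RNA fewer cells of a type and less RNA per cell cannot be told apart. Counting intervals overlapped for H2-Aa only between maternal cells of DC control and DC-depleted pIUT, and for H2-Ab1 only between maternal cells of DC control mIUT and DC-depleted pIUT.

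The chains of I-E parted from each other. H2-Eb1, the β chain, stood at 3078, 12.9, 13.9 and 10.6 CPM in maternal cells (uninjected, DC control mIUT, DC control pIUT and DC-depleted pIUT) and at 374, 39.0, 126 and 171 CPM in recipient cells, where its order was that of I-A. The 3 maternal libraries after IUT could hardly be ordered, since the interval of DC control mIUT (11.8 to 14) overlapped both of its neighbours in the order. H2-Ea, the α chain, was not detectable in maternal cells of uninjected and DC control pIUT pups and stood at 8.03 and 5.39 CPM in those of DC control mIUT and DC-depleted pIUT. In recipient cells it stood at 0.558 CPM (0.368 to 0.812) in uninjected pups and at 11.8, 60.4 and 68.4 CPM after DC control mIUT, DC control pIUT and DC-depleted pIUT. H2-Ea was the member with its lowest recipient level in uninjected pups, the library in which 7 of the other 9 members had their highest recipient level.

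The invariant chain Cd74 was the most abundant member by counts in 7 of 8 libraries. It stood at 21173, 226, 69.6 and 25.0 CPM in maternal cells and at 4881, 151, 471 and 596 CPM in recipient cells. Per kilobase of transcript it led in those 7 libraries as well, from 48.6 to 14796 CPM per kilobase, whereas in maternal cells of DC-depleted pIUT it was at 17.5, under H2-Ab1 (57.6) and beside H2-DMa (18.8). Ciita stood at 43.5 CPM in uninjected maternal cells and was not detectable in any maternal library after IUT. In recipient cells it stood at 56.6 CPM in uninjected pups, its highest level, and at 1.36 (0.967 to 1.86), 0.421 (0.253 to 0.657) and 3.37 (2.91 to 3.9) CPM after IUT. Ciita was the only member besides H2-Ea whose highest level was not in uninjected maternal cells, and without the library labelled recipient uninjected it too was highest there.

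The H2-DM genes were detectable almost throughout. H2-DMa stood at 612, 13.1, 4.55 and 21.7 CPM in maternal cells and at 36.6, 21.1, 69.5 and 90.4 CPM in recipient cells, where both pIUT libraries exceeded the uninjected library. The intervals of maternal DC-depleted pIUT and recipient DC control mIUT overlapped. H2-DMb1 stood at 139 and 37.2 CPM in maternal cells of uninjected and DC control mIUT pups, was not detectable after DC control pIUT and stood at 2.3 CPM after DC-depleted pIUT. In recipient cells H2-DMb1 varied least of all members, at 42.3, 13.2, 29.6 and 43.1 CPM, and uninjected and DC-depleted pIUT could not be told apart there. The paralog H2-DMb2 stood at 171, 39, 28.5 and 24.5 CPM in the same recipient libraries, and how reads were divided between both genes was not tested. The ratio of H2-DMb2 to H2-DMb1 ranged from 0.539 in maternal cells of DC-depleted pIUT to 9.89 in uninjected maternal cells, and neither was detectable in maternal cells of DC control pIUT.

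The H2-DO genes were undetectable in maternal cells of both DC control libraries. H2-Oa stood at 246 CPM in uninjected maternal cells, was not detectable after DC control mIUT and pIUT, and stood at 0.939 CPM (0.638 to 1.33) after DC-depleted pIUT. Recipient cells held H2-Oa at 29.5, 1.95, 15.3 and 9.19 CPM. H2-Ob stood at 705 CPM in uninjected maternal cells, was at 1 count after DC control mIUT and 0 after DC control pIUT, and stood at 1.42 CPM (1.05 to 1.89) after DC-depleted pIUT. Recipient cells held it at 77.5, 3.03, 8.24 and 5.75 CPM. H2-Ob exceeded H2-Oa 2.87 times in counts in uninjected maternal cells and 2.63 times in uninjected recipient cells, but was 0.538 and 0.625 of it in recipient cells of DC control and DC-depleted pIUT.

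**Figure D2:**
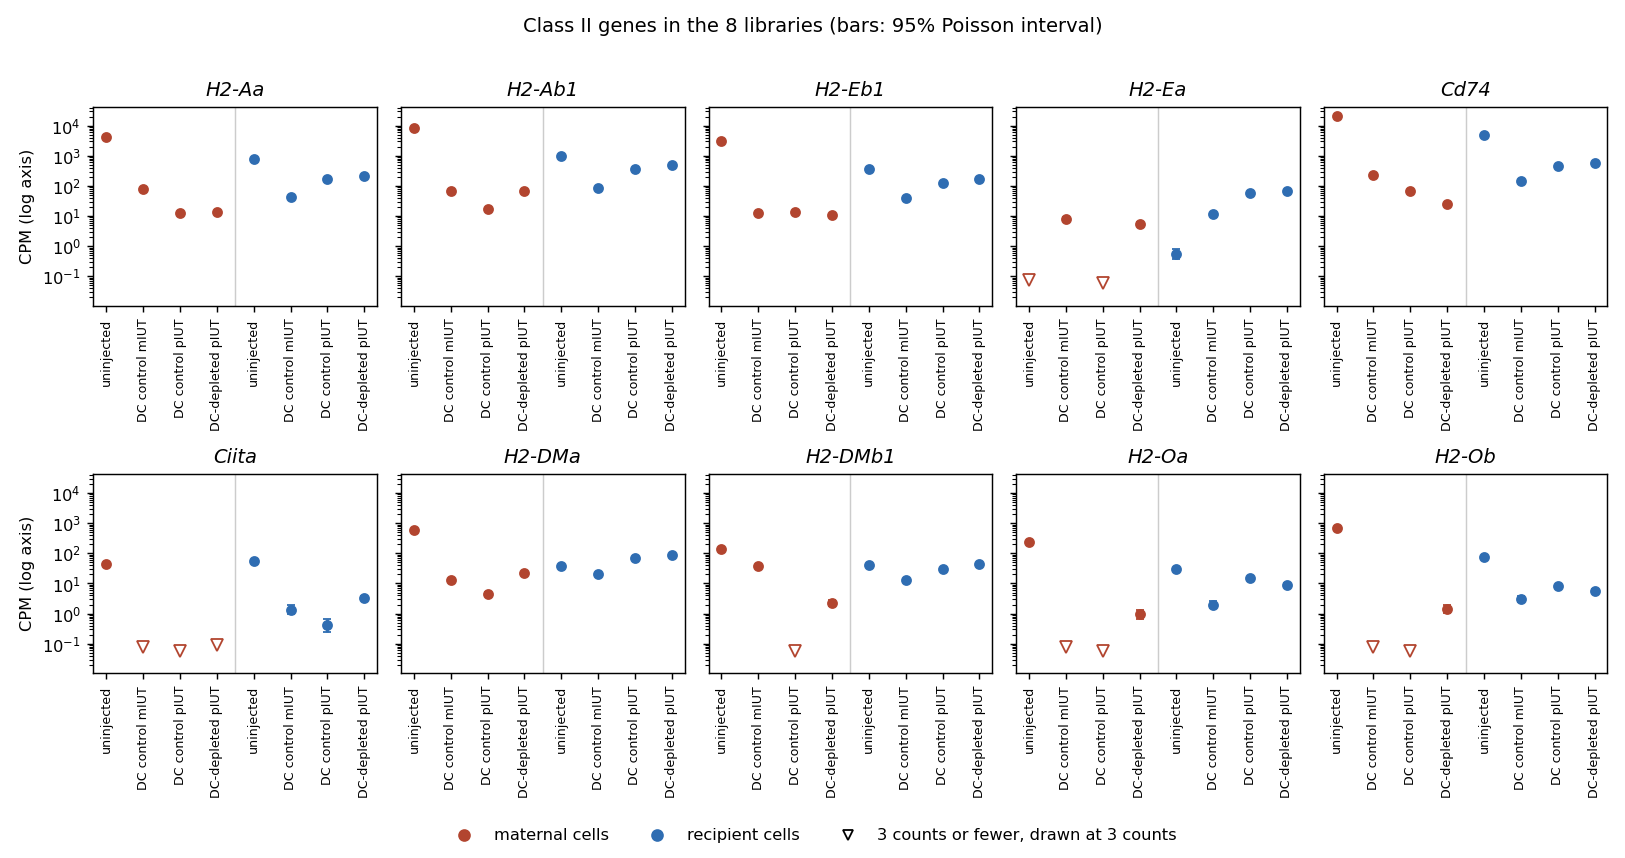
CPM of the 10 genes (1 panel each, log axis) in the 8 libraries, maternal cells in red and recipient cells in blue, with 95% Poisson intervals. Open triangles are libraries at 3 counts or fewer, drawn at the level of 3 counts. For 8 of 10 genes the highest point is uninjected maternal cells, H2-Ea is highest in recipient cells of DC-depleted pIUT and Ciita in uninjected recipient cells.

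Counted over the genes, 8 of 10 members had their highest level in uninjected maternal cells, and 9 of 10 did without the 3 libraries whose H2-Ea went against the label. The number of members over 3 counts was 9, 7, 5 and 9 in the maternal libraries and 10 in each recipient library. H2-Aa, H2-Ab1, H2-Eb1 and Cd74 together made up 3.74% of all counts in uninjected maternal cells and 0.709% in uninjected recipient cells. They made up between 0.0102% and 0.0334% in the maternal libraries after IUT and between 0.0218% and 0.196% in the recipient libraries after IUT.

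The make-up of the class II counts also differed between libraries. Cd74 gave 54.5%, 50.9% and 58.8% of the counts of the 10 genes in maternal cells of uninjected, DC control mIUT and DC control pIUT pups. In maternal cells of DC-depleted pIUT it gave 16.5% (15.5% to 17.6%), and H2-Ab1 gave 46.2% (44.8% to 47.6%) and H2-DMa 14.4% (13.4% to 15.4%). That library thus stood apart from the other 7 in all 3 of these shares. In recipient cells Cd74 gave 67.1% in uninjected pups, 41.1% after DC control mIUT, and 35.9% and 35.1% after DC control and DC-depleted pIUT. Recipient cells of DC control and DC-depleted pIUT had H2-Aa at 0.446 and 0.448 of H2-Ab1, H2-Eb1 at 0.342 and 0.347, and H2-DMa at 0.189 and 0.184, with overlapping intervals. Other ratios differed between them beyond their intervals, H2-Ea over H2-Eb1 (0.48 and 0.401) and H2-Oa over H2-DMa (0.221 and 0.102) among them. H2-Aa over H2-Ab1 ranged more widely among maternal libraries, from 0.198 in DC-depleted pIUT to 1.1 in DC control mIUT, with 0.49 in uninjected pups.

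**Figure D3:**
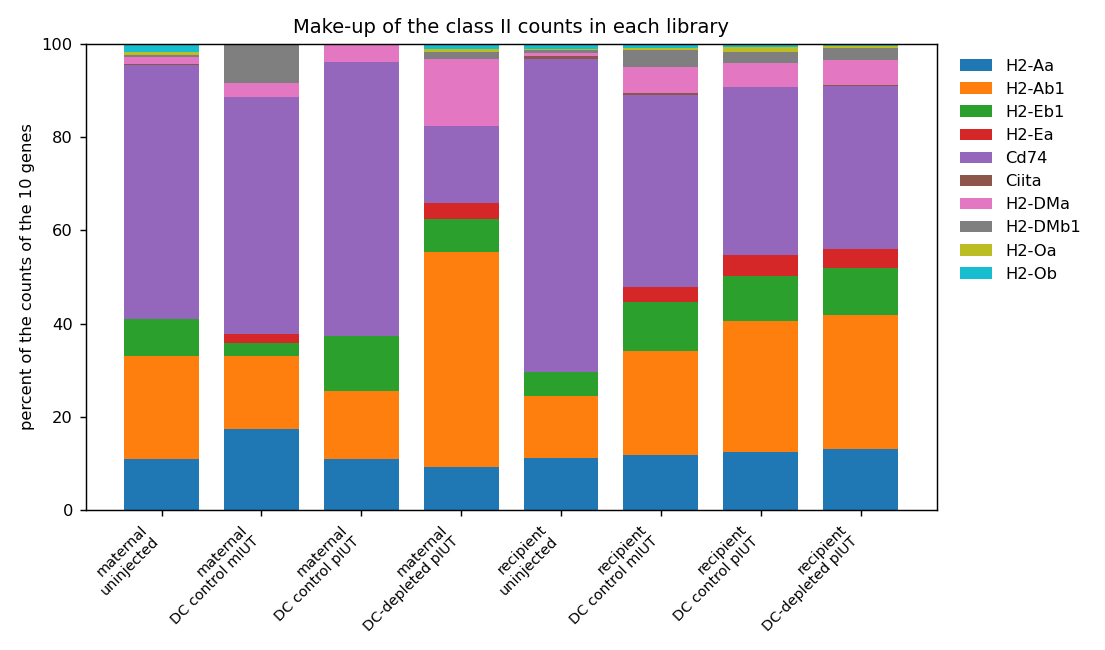
Share of each gene in the counts of the 10 genes (percent, bars stacked to 100) for the 8 libraries. Maternal cells of DC-depleted pIUT had 16.5% Cd74 and 46.2% H2-Ab1, whereas Cd74 lay between 35.1% and 67.1% in the other libraries.

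The first question was how class II genes in trafficked maternal cells after IUT compared with those of uninjected pups. They were lower in all 3 maternal libraries, from 3.74-fold (H2-DMb1, DC control mIUT) to at least 11884-fold (H2-Ob, DC control pIUT), H2-Ea apart. The summed level of H2-Aa, H2-Ab1, H2-Eb1 and Cd74 was 37105 CPM in uninjected maternal cells and 385, 114 and 119 CPM after DC control mIUT, DC control pIUT and DC-depleted pIUT, which is 96.4-fold, 326-fold and 311-fold lower. A gene was counted as changed at a 4-fold difference or more, among genes with over 3 counts in at least 1 of both libraries.

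After DC control mIUT, 8 of 10 members were lower, against 38.3% of all genes tested, and H2-Ea alone was higher, against 18.1%. The median log2 fold change of the members was -6.75, and that of all genes -0.67. Cd74 was 93.8-fold lower (91.9 to 95.8), H2-Ab1 124-fold (119 to 128) and H2-Eb1 239-fold (219 to 262). H2-DMb1 stood closest to its uninjected level, 3.74-fold lower (3.53 to 3.96), short of the limit but past it with scaling by library totals (log2 -2.12). H2-Ob was at least 9097-fold and H2-Oa at least 3173-fold lower.

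After DC control pIUT, the 9 members detectable in either library were all lower, against 25% of all genes tested, and 0 of 9 were higher, against 24.8%. Their median log2 fold change was -8.96 beside 0.00 for all genes. H2-Ab1 was 499-fold lower (467 to 533), H2-Aa 325-fold (301 to 351) and Cd74 304-fold (294 to 315). H2-DMb1 was at least 2345-fold lower and Ciita at least 734-fold. This comparison holds neither of the maternal libraries whose H2-Ea went against the label.

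After DC-depleted pIUT, 9 of 10 members were lower, against 26.8% of all genes tested, and H2-Ea alone was higher, at least 69.9-fold, against 26%. The median log2 fold change was -8.10 beside 0.06 for all genes. Cd74 had its lowest level of the 8 libraries here, 847-fold under its uninjected level (792 to 908). Ciita, at 0 counts, was at least 479-fold lower, so the order of these genes is not known. H2-DMa stood closest, 28.2-fold lower (26.2 to 30.4).

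In recipient cells the same question gave smaller differences in the summed level, and genes of the same complex did not always go together. All 3 comparisons rest on the uninjected library with little H2-Ea and with 9.51% of widely found genes under 1 CPM, and without it they cannot be made. Summed over H2-Aa, H2-Ab1, H2-Eb1 and Cd74 the level was 7032 CPM in uninjected recipient cells and 22.2-fold lower after DC control mIUT (316 CPM), 6.23-fold lower after DC control pIUT (1129 CPM) and 4.76-fold lower after DC-depleted pIUT (1478 CPM).

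After DC control mIUT, 7 of 10 members were lower in recipient cells, against 18.1% of all genes tested, and H2-Ea was higher, against 47.1%. The median log2 fold change was -3.73 beside 1.48 for all genes. Ciita was 41.6-fold lower (30.4 to 58.7), Cd74 32.2-fold (31.3 to 33.2) and H2-Ob 25.5-fold (20.7 to 32.0). H2-DMa was 1.73-fold lower and H2-DMb1 3.2-fold, both within the limit, which H2-DMb1 passed with scaling by library totals (log2 -2.23).

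After DC control pIUT, H2-Aa, Cd74, Ciita and H2-Ob (4 of 10 members) were lower in recipient cells, against 13.3% of all genes tested, and H2-Ea was higher, against 48.2%. Ciita was 135-fold lower (86.0 to 224), Cd74 10.4-fold (10.2 to 10.5), H2-Ob 9.41-fold (8.46 to 10.5) and H2-Aa 4.9-fold (4.78 to 5.02). H2-Ab1 and H2-Eb1 were 2.64-fold and 2.97-fold lower, and H2-DMa was 1.9-fold higher (1.79 to 2.01). The median was -1.49 beside 1.64 for all genes.

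After DC-depleted pIUT, Cd74, Ciita and H2-Ob (3 of 10) were lower in recipient cells, against 10.8% of all genes tested, and H2-Ea was higher, against 52.1%. Ciita was 16.8-fold lower (14.5 to 19.6), H2-Ob 13.5-fold (12 to 15.2) and Cd74 8.2-fold (8.1 to 8.29). H2-Aa was 3.66-fold lower and passed the limit with upper-quartile scaling (log2 -2.11). H2-DMa was 2.47-fold higher (2.34 to 2.61), while H2-DMb1 differed 1.02-fold (0.96 to 1.08) and changed direction with DESeq2 and upper-quartile scaling. The median was -1.41 beside 2.94 for all genes. H2-Ea was 21.2-fold (14.3 to 32.6), 108-fold (74.2 to 164) and 122-fold (84.1 to 186) higher than in uninjected recipient cells after DC control mIUT, DC control pIUT and DC-depleted pIUT. The share of all genes that were higher was itself large in these 3 comparisons, whose medians over all genes were 1.27, 1.13 and 1.23 with undetectable genes set to their bound.

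**Figure D4:**
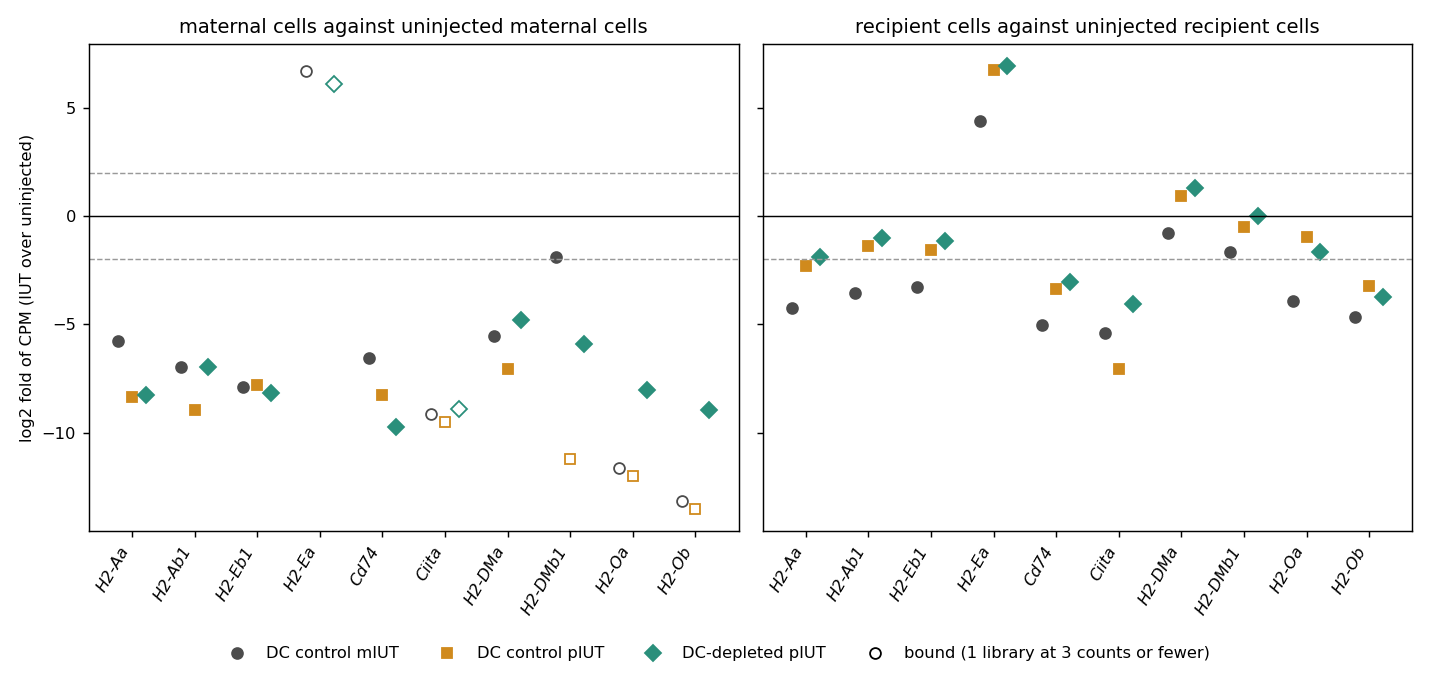
Log2 fold of CPM of each gene after IUT over uninjected cells of the same origin, maternal cells on the left and recipient cells on the right, with 1 symbol per kind of IUT. Open symbols are bounds, and dashed lines mark 4-fold. Every maternal point except H2-Ea lies under 0, whereas recipient H2-DMa lies above 0 after both kinds of pIUT (1.9-fold and 2.47-fold). The log2 medians of all genes in these recipient comparisons were 1.64 and 2.94, or 1.13 and 1.23 with undetectable genes set to their bound.

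The second question was what DC depletion of the dam went with. In recipient cells little separated DC-depleted from DC control pIUT. Ciita alone passed the limit (1 of 10 members, against 18.7% of all genes tested), at 185 against 19 counts or 8.02-fold higher (4.99 to 13.6), and 0 of 10 members were lower, against 8.68%. H2-Aa, H2-Ab1, H2-Eb1, Cd74, H2-DMa and H2-DMb1 were between 1.27-fold and 1.45-fold higher, and H2-Ea 1.13-fold. H2-Oa and H2-Ob were 1.67-fold (1.48 to 1.87) and 1.43-fold (1.23 to 1.67) lower. The median log2 fold change was 0.40, and that of all genes 0.12.

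In maternal cells, 6 of 9 members detectable in either library were higher in DC-depleted than in DC control pIUT, against 27.5% of all genes tested, and 0 of 9 were lower, against 28.3%. With scaling by library totals 4 were higher and 1 lower, and with DESeq2 scaling 5 and 0. Their median log2 fold change was 2.25 beside 0.07 for all genes. In the same comparison 5 of 8 granulocyte markers and 7 of 12 monocyte or macrophage markers were higher, and 1 of each list was lower, against the same shares. H2-Ab1 was 4.04-fold (3.73 to 4.37) and H2-DMa 4.77-fold (4.1 to 5.56) higher, and both came under 4-fold with scaling by library totals. H2-Ea, H2-DMb1, H2-Ob and H2-Oa were at least 90.9-fold, 38.8-fold, 24.0-fold and 15.8-fold higher, from 0 counts. Cd74 was 2.78-fold lower (2.58 to 3.01). H2-Aa differed 1.06-fold upward (0.939 to 1.2) and H2-Eb1 1.3-fold downward (1.15 to 1.49), and each changed direction with another scaling (library totals and DESeq2 for H2-Aa, upper quartiles for H2-Eb1). This comparison rests on the DC-depleted library in which H2-Ea was against the label.

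The third question was how maternal cells compared with recipient cells of the same treatment. In uninjected pups 7 of 10 members were higher in maternal cells, against 41.9% of all genes tested, and H2-Ea alone was lower, against 15.8%. The median log2 fold change was 2.72 beside 0.86 for all genes. H2-DMa was 16.7-fold higher (15.9 to 17.6), H2-Ea at least 7.24-fold lower, and Ciita was 1.3-fold lower (1.22 to 1.38). This comparison rests on the library labelled recipient uninjected, in which H2-Ea went against the label. After DC control pIUT, where neither library went against its label, the direction was the other one. All 10 members were lower there in maternal than in recipient cells, against 28.5% of all genes tested, and 0 were higher, against 18.9%. The median was -5.88, or -4.17 with undetectable genes set to their bound, beside -0.36 for all genes.

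After DC-depleted pIUT all 10 were lower as well, against 34.8%, and 0 were higher, against 10.8%, with a median of -3.83 beside -0.71 for all genes. H2-Ob (4.04-fold) and H2-DMa (4.17-fold) were near the limit and came under it with DESeq2 scaling, and Cd74 was 23.8-fold lower (22.2 to 25.6). The maternal libraries of this comparison and of the next, DC control mIUT, both had H2-Ea against the label. After DC control mIUT maternal and recipient cells differed least, with 3 of 10 members lower (Ciita, H2-Oa and H2-Ob), against 38.7% of all genes tested, and 0 higher, against 13.7%. H2-Aa, Cd74 and H2-DMb1 were 1.78-fold, 1.49-fold and 2.82-fold higher in maternal cells and H2-Eb1 3.03-fold lower, and H2-Ab1 (1.19-fold lower) changed direction with scaling by library totals. The median was -0.62 beside -0.79 for all genes.

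The other genes of the pathway, a list of 29 that holds the remaining class II chains, endosomal proteases, promoter-binding factors, interferon-γ signalling and surface turnover, is given beside the same shares of all genes. Compared with uninjected maternal cells, 10, 11 and 14 of 29 were lower after DC control mIUT, DC control pIUT and DC-depleted pIUT, against 38.3%, 25% and 26.8% of all genes tested. Higher were 4, 1 and 1 of 29, against 18.1%, 24.8% and 26%. The 3 lowest were the DC maturation marker Cd83, the X-box factor Creb1 and H2-Eb2 after DC control mIUT, H2-DMb2, Cd83 and H2-Eb2 after DC control pIUT, and H2-Eb2, H2-DMb2 and the lymphoid factor Irf4 after DC-depleted pIUT. They were taken by fitted fold change, and for genes at 0 counts the order is not known. After DC-depleted pIUT Irf4 was at least 36.5-fold lower, beside measured values of 69.1-fold for Irf8 and 68.6-fold for Jak2. H2-DMb2 had 53538 counts in uninjected maternal cells and 942, 0 and 41 counts after IUT, the last 1108-fold lower (817 to 1544). Some genes were higher. Ctsl, the cathepsin that cleaves the invariant chain in thymic epithelium, was 25.7-fold (24.4 to 27.2), 3.44-fold and 4.13-fold higher, Marchf8, a ligase that removes class II from the surface, was 4.73-fold higher after DC control pIUT and 3.93-fold after DC-depleted pIUT but 33.8-fold lower after DC control mIUT, and the asparaginyl protease Lgmn and Ifngr2 were 4.46-fold and 6.06-fold higher after DC control mIUT but 2.58-fold and 8.91-fold lower after DC-depleted pIUT. The protease Ctss was lower in all 3 libraries, 13-fold, 24.8-fold and 24.2-fold. The NF-Y subunit Nfya (2.32-fold, DC control pIUT) and the invariant chain protease Sppl2a (1.6-fold, DC-depleted pIUT) stood among the highest without passing the limit.

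In recipient cells 5, 5 and 2 of 28, 29 and 29 pathway genes tested were lower than in uninjected cells, against 18.1%, 13.3% and 10.8% of all genes tested, and 6 were higher each time, against 47.1%, 48.2% and 52.1%. The medians of the list were -0.58, -1.50 and -1.85 in maternal and -0.02, -0.17 and -0.42 in recipient cells. Between DC-depleted and DC control pIUT, 5 of 27 tested were higher and 6 lower in maternal cells, against 27.5% and 28.3%, and 1 was higher and 1 lower in recipient cells, against 18.7% and 8.68%. Among the lowest in recipient cells against uninjected ones were Lgmn (36.9-fold lower after DC control mIUT), Ctss, the cathepsin that cleaves the invariant chain in B cells and DC (18.5-fold after DC control mIUT and 6.83-fold after DC control pIUT), Ctsl (3.93-fold after DC-depleted pIUT), Marchf8 (9.61-fold, 85.6-fold and 8.08-fold) and H2-DMb2 (5.99-fold and 6.96-fold after DC control and DC-depleted pIUT). The highest by fitted fold change were Cd83, Irf4 and Rfx5, a subunit of the X-box factor, all 3 at 0 counts in the uninjected recipient library, so that their order against other genes is not known. After DC control mIUT their bounds (13.5-fold to 30.4-fold) lay under the 40.3-fold of Ifngr2 and the bound of Nfya (at least 56.8-fold). After DC-depleted pIUT they had 2370, 293 and 392 counts, at least 697-fold, 86.2-fold and 115-fold higher. These 3 genes were detectable in uninjected maternal cells, with 5496, 129 and 217 counts.

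Markers of several cell types moved with class II, among them B cells. The 12 B-cell markers summed to 8473, 342, 70.2 and 34.5 CPM in maternal cells and to 1568, 81.7, 236 and 301 CPM in recipient cells, the same order of treatments as class II within recipient cells. In maternal cells all 12 were over 3 counts in uninjected pups and 5, 5 and 7 after IUT, where Pax5, Fcer2a, Cr2 and Bank1 were at or under 3 counts in all 3 libraries. In recipient cells 9, 8 and 8 of 11, 11 and 12 B-cell markers tested were lower after IUT than in uninjected ones, against 18.1%, 13.3% and 10.8% of all genes, and 2, 2 and 3 were higher, against 47.1%, 48.2% and 52.1%. Blk, a B-cell kinase, was among those higher, from 0 to 90, 1322 and 1445 counts. Cd79a stayed detectable in every library, at 9.48 CPM in maternal cells of DC-depleted pIUT.

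Set against the B-cell list, the summed level of H2-Aa, H2-Ab1, H2-Eb1 and Cd74 in recipient cells was 4.49, 3.87, 4.77 and 4.92 times the summed markers. In maternal cells the ratio was 4.38 in uninjected pups and 1.12, 1.62 and 3.45 after IUT. Against Cd79a and Cd79b alone, the signalling chains of the B-cell receptor, it was 7.87, 1.34, 2.73 and 5.12 in maternal cells and 8.84, 7.04, 10 and 8.94 in recipient cells. Immunoglobulin reads of the clonotype tables, scaled as the genes were, stood at 8364, 118, 39.4 and 27.7 CPM in maternal cells and 1176, 49.8, 158 and 158 in recipient cells. Against these reads the class II sum was 4.44, 3.26, 2.88 and 4.3 in maternal cells and 5.98, 6.35, 7.16 and 9.34 in recipient cells, so that the recipient ratio was not constant on this measure. The part of B cells in the class II differences was not tested.

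**Figure D5:**
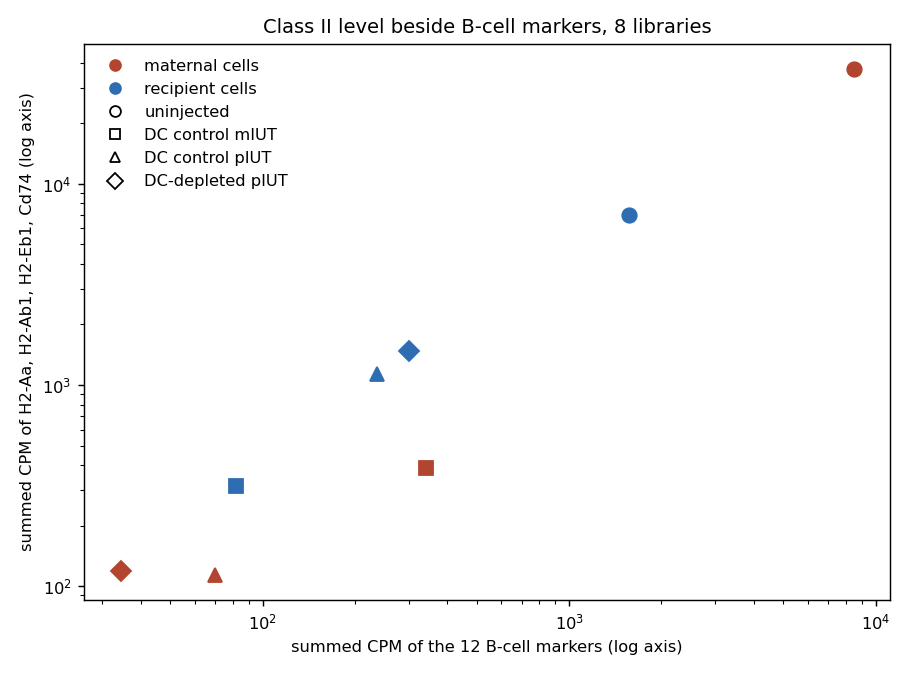
Summed CPM of H2-Aa, H2-Ab1, H2-Eb1 and Cd74 against summed CPM of 12 B-cell markers, 1 point per library, both axes logarithmic. The recipient libraries lie near 1 line at 3.87 to 4.92 times the B-cell sum, and maternal cells of DC control mIUT (1.12) and DC control pIUT (1.62) lie under it.

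Most conventional DC markers were lower together with class II in maternal cells after IUT. Conventional DC markers (10 genes) summed to 653, 70.9, 49 and 87.4 CPM in maternal cells and to 219, 49.8, 295 and 337 CPM in recipient cells. Of those tested, 9 of 9, 6 of 10 and 7 of 10 were lower in maternal cells than in uninjected ones, against 38.3%, 25% and 26.8% of all genes tested. In recipient cells 4 of 7, 7 of 10 and 7 of 10 were higher, against 47.1%, 48.2% and 52.1%. Of the 10, 9, 2, 5 and 6 were over 3 counts in the maternal libraries and 3, 7, 10 and 10 in the recipient libraries. Itgax, which encodes CD11c, had 409, 0, 611 and 1 counts in maternal cells and 0, 73, 367 and 722 counts in recipient cells. Zbtb46, a factor of conventional DC, had 208, 0, 1063 and 2527 counts in maternal cells, so that it and Itgax differed in opposite directions between DC control and DC-depleted pIUT. Of 8 markers tested in maternal cells in that comparison, 3 were higher and 3 lower, against 27.5% and 28.3% of all genes tested. In uninjected recipient cells, the library with the second highest class II level, Flt3, Ccr7 and Irf8 stood at 65, 39.9 and 114 CPM. The other conventional DC markers (Itgax, Zbtb46, Xcr1, Clec9a, Batf3, Cd209a and Clec10a) were at or under 3 counts there. Plasmacytoid DC markers (6 genes) summed to 184, 56.4, 136 and 53.4 CPM in maternal cells, with 4, 4 and 3 of 6 lower than in uninjected ones, and to 138, 69.3, 197 and 99.1 CPM in recipient cells. T-cell markers (10 genes) were also lower in maternal cells after IUT, at 2424, 513, 131 and 399 CPM with 7, 10 and 7 of 10 lower, and stood at 620.0, 645, 3672 and 935 CPM in recipient cells. The shares of all genes given for conventional DC in maternal cells (38.3%, 25% and 26.8% lower) apply to both lists.

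Monocyte and macrophage markers (12 genes) stood at 15544, 17549, 715 and 1799 CPM in maternal cells and 28721, 36624, 11217 and 6642 CPM in recipient cells, and 9 to 12 of them were over 3 counts in each library. Most of each sum was 1 gene, Lyz2 (lysozyme, also made by granulocytes), at 35300 of the 36624 CPM in recipient cells of DC control mIUT. Counted by gene, 5, 9 and 7 of 12, 11 and 12 markers tested were lower in maternal cells after DC control mIUT, DC control pIUT and DC-depleted pIUT than in uninjected ones, against 38.3%, 25% and 26.8% of all genes. In recipient cells 9, 7 and 5 of 12 were lower, against 18.1%, 13.3% and 10.8%. In maternal cells of DC-depleted against DC control pIUT, 7 of 12 were higher, against 27.5%, with a median log2 fold change of 2.27. The paper describes the cells as mononuclear, yet granulocyte markers (8 genes) summed to 2399, 167264, 1680 and 10820 CPM in maternal cells and 15766, 273406, 48160 and 19945 CPM in recipient cells. Of these markers, 8 of 8 and 6 of 8 were higher after DC control mIUT than in uninjected maternal and recipient cells, against 18.1% and 47.1% of all genes. Erythroid markers (9 genes) summed to 91687, 21020, 130690 and 180900 CPM in maternal cells and 124601, 210.0, 40421 and 26134 CPM in recipient cells. Hepatocyte markers (6 genes) summed to 44.3, 4266, 126 and 406 CPM in maternal cells and 10215, 25.6, 4.98 and 584 CPM in recipient cells. Epithelial markers (5 genes) summed to 23.4, 404, 16.1 and 14.3 CPM in maternal cells and 2478, 4.08, 25.1 and 30.0 CPM in recipient cells. The recipient library highest in erythroid, hepatocyte and epithelial markers was thus the uninjected one, as it was for class II. Their part in the class II values was not tested.

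The genes most like the class II profile were found by Pearson's r of log2(CPM + 1) with the mean of H2-Aa, H2-Ab1, H2-Eb1 and Cd74 across the 8 libraries, over 8498 other genes with a mean of at least 10 CPM. The 10 leading genes were Gimap3 (r = 0.98), Igkc, Ly6e, Gimap6, Ero1b and Fcmr (0.97 each), Slc26a10, H2-Q6 and Ms4a6b (0.96 each) and Iglc2 (0.95). The libraries are of like depth, 1 of them is far above the rest, and r is a description with no p. Gimap3 stood at 754, 0.775, 0 and 0.636 CPM in maternal cells and at 184, 5.54, 24.4 and 27.6 CPM in recipient cells, with the uninjected library highest in each origin. Igkc and Iglc2 are immunoglobulin light chain genes, and Fcmr, a receptor for IgM, belongs to the B-cell list. Without uninjected maternal cells only 2 of these 10 genes stayed among the 10 most alike.

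Among the members, r with this profile was 0.97 for H2-Oa, 0.96 for H2-Ob, 0.90 for Ciita, 0.88 for H2-DMa and 0.84 for H2-DMb1, and the 4 genes that make the profile had 0.96 to 0.99. H2-Ea had -0.19. Of the pathway list, Ctss (0.94, rank 18 of 8498), H2-DMb2 (0.93, rank 32) and Irf8 (0.88, rank 85) were the most alike, while Ctsl had -0.32.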

How the data were processed

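RNA of sorted trafficked maternal and recipient cells was sequenced in 8 libraries, 1 per origin and treatment. The authors deposited estimated counts per gene, not normalized, mapped to GRCm39 with a GENCODE annotation. The values are fractional as salmon writes them, whereas the methods name featureCounts, and the submitters' processing notes name bcl2fastq and StringTie, without versions. Reads of the d haplotype were thus counted on the C57BL/6 reference, and the effect of this on class II counts was not tested. Whether counting used strand is not given in the sources used here. The authors also deposited MiXCR clonotype tables, whose clone count is the number of reads per clonotype and was used here only to sum immunoglobulin reads.

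Estimated counts were rounded, and 25066 of 52784 genes with a count were kept. There were 0 unused columns. edgeR 4.0.16 in R 4.3.3 gave TMM factors and log2 fold changes (exact test at dispersion 0.4, prior count 0.125), and no p-value was used. CPM is a count over the product of total and TMM factor. The limit for a call was 4-fold, and the floor was 3 counts. The calculation was tested on simulated data. Symbols came from GENCODE vM39 (97.99% of IDs matched), and transcript lengths from its canonical transcripts. Tables and intervals were made with scipy 1.17.1, pandas 2.3.3 and numpy 2.4.6 under Python 3.11.15, and plots with matplotlib 3.10.9. The genes named are all 10 members, in each comparison with uninjected cells the 3 highest and 3 lowest of 29 pathway genes (with over 3 counts in either library), the 10 genes most like the class II profile, and marker lists by their sums and undetected markers. Other genes named (Itgax, Zbtb46, Cd79a, Lyz2, Jak2, Blk, Ifngr2, Nfya, Marchf8 and Lgmn outside the comparisons that the rule gives, Ctss and Irf8 in maternal cells, Flt3, Ccr7 and Irf8 in uninjected recipient cells, the recipient levels of H2-DMb2, and Ctss, H2-DMb2, Irf8 and Ctsl by r) were chosen after their values were seen. The members, the lists and the comparison of H2-Ea with H2-Eb1 were chosen with earlier results of these data known. The alternatives were other scalings (library totals, DESeq2 1.42.0 size factors, upper quartiles), prior counts of 2 and 5, filters of 10 counts or none, a 2-fold limit, a floor of 1 count, other likeness measures and, chosen after the data were seen, bounds for undetected genes and leaving out the 3 libraries whose H2-Ea went against the label.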

Additional observations from a re-analysis of the deposited data

Results flagged for a closer look

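Some members differed in opposite directions in maternal and recipient cells under the same contrast. With 1 library per group the difference between the origins was not tested. H2-DMa was 135-fold lower in maternal cells and 1.9-fold higher in recipient cells after DC control pIUT than in uninjected pups, and 28.2-fold lower and 2.47-fold higher after DC-depleted pIUT. In these recipient comparisons H2-DMa had log2 0.92 and 1.30. The medians of all genes there were 1.64 and 2.94, or 1.13 and 1.23 with undetectable genes set to their bound. H2-DMb1 was 60.4-fold lower in maternal cells and 1.02-fold higher in recipient cells after DC-depleted pIUT, and the recipient direction changed with the scaling.

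Between DC-depleted and DC control pIUT, H2-Eb1 was 1.3-fold lower in maternal and 1.35-fold higher in recipient cells, the maternal direction changing with upper-quartile scaling. Cd74 was 2.78-fold lower in maternal and 1.27-fold higher in recipient cells. H2-Oa was at least 15.8-fold higher in maternal and 1.67-fold lower in recipient cells, and H2-Ob at least 24.0-fold higher and 1.43-fold lower. Each of these contrasts uses recipient uninjected or maternal DC-depleted pIUT cells, or both, libraries in which H2-Ea went against the label.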

How the results depend on the processing

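No paired fit was made, and no fit of origin over the 4 treatments. Of 220 counts of members under alternatives, 215 lay within 1.5 times the reported count. With a 2-fold limit, 2 members were higher and 6 lower in recipient cells of DC-depleted pIUT than in uninjected ones, 1 member (Cd74) was lower in maternal cells of DC-depleted than of DC control pIUT, and 1 (H2-DMb1) was higher in maternal than recipient cells of DC control mIUT. No share of all genes at 2-fold is given beside these counts. The median log2 fold changes of all genes in these comparisons were 2.94, 0.07 and -0.79. With library totals, 1 member (Cd74, log2 -2.06) was lower in maternal cells of DC-depleted than of DC control pIUT and 4 were higher, in place of 6. All 581 values of the 83 called fold changes kept their direction, and 570 stayed at 4-fold or more. The other 11 were values of H2-Ab1, H2-DMa and H2-Ob in comparisons with maternal DC-depleted pIUT, where upper-quartile scaling left 7 of 10 members lower than in recipient cells. Past the limit under 1 scaling only came 4 values, Cd74 as above, H2-DMb1 in maternal and recipient DC control mIUT and H2-Aa in recipient DC-depleted pIUT. Scaling moved the median log2 fold change of all genes by -0.63 to 0.87, most in comparisons with that library. Members highest in uninjected maternal cells numbered 8 to 9 when any or all of the 3 libraries whose H2-Ea went against the label were left out, a check chosen after seeing the data. Of the 10 genes most like the profile, 1 was kept with Spearman's rho, 8 with a pseudocount of 0.1 CPM 7 with a profile of all members but H2-Ea, and 2 (without maternal uninjected) to 8 when 1 library was left out (6 without recipient uninjected, 5 without maternal DC control mIUT or DC-depleted pIUT), and the cause was not tested. Depth does not limit the abundant members, while Ciita, H2-Oa and H2-Ob rest on under 100 counts in several libraries.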
